A study of Mus musculus with 8 samples.

Results

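The valine tRNA genes are the nuclear genes whose transcripts carry valine to the ribosome. They were taken as every row of the deposited table named tRNA, a number, a hyphen and Val with an anticodon, with no filter on level. This gave 20 of the 964 rows analysed here, and 20 of 328 tRNA rows: 10 with the anticodon CAC, 7 with AAC and 3 with TAC. The names matched the label, as each row carries an anticodon that reads valine codons. The libraries came from bone marrow GMLPs (granulocyte-monocyte-lymphoid progenitors) that were sorted and then kept 3 days in culture with doxycycline. Of the libraries, 4 were of wild-type origin (WT). The other 4 came from the iMLL-ENL strain, whose inducible transgene encodes a leukaemia fusion of the histone methyltransferase MLL with ENL, and both groups received doxycycline. The labels give neither the age of the mice nor the promoter of the transgene, and separate animals are not stated for the replicates. The p-values therefore describe how far these libraries spread, and that spread may be technical. Protein-coding markers of the sorted cells and the level of the fusion were not analysed here.

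A tRNA is a short RNA polymerase III transcript that folds into a cloverleaf, is charged with 1 amino acid, and reads codons through its anticodon. All valine codons start with GU. The isoacceptor with anticodon CAC reads GUG. The isoacceptor with AAC has its first anticodon base converted to inosine and reads GUU, GUC and GUA, and the isoacceptor with TAC reads GUA and GUG. Mammalian genomes hold many near-identical copies of these genes, and small RNA libraries also capture fragments of tRNAs. RefSeq lists 22 nuclear valine tRNA genes by anticodon on GRCm38.p6, with 11 for CAC, 8 for AAC and 3 for TAC. Of these, 10 lie on chromosome 13 between 22015791 and 23446214, and none of the TAC genes does. The TAC genes are a pair on chromosome 19 between 12011931 and 12012338 and 1 gene on chromosome X at 160766110 to 160766182. The sources used here do not pair these genes with the numbered rows. The listed genes are 72 or 73 bases long, so gene length differs little between them. Whole tRNAs and fragments were not told apart here, so row levels need not follow numbers of molecules.

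The values are reads per 1000000 reads of a library's total (RPM). Within a library they are multiples of 1 step, and taking this step as 1 read puts 5910000 to 9270000 reads behind the scale. By this estimate the valine rows hold 386617 to 674861 reads per library, and 3 reads correspond to 0.32 to 0.51 RPM. Counting error is therefore small for every row but tRNA976-ValCAC, with 14 to 33 reads. WT replicate 2 stood apart, with a mean correlation of 0.908 with its own group over all tested rows, against 0.955 to 0.968 for the other WT libraries. Reads of near-identical copies cannot be assigned to 1 copy with certainty, so calls over copies are not independent. The sources do not say whether such a read was counted once or at every copy it matches. Sums, read totals, shares and ranks of isoacceptors depend on this. In these bulk samples, fewer cells of a type and less RNA per cell cannot be told apart.

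Valine tRNAs were a large part of the measured tRNA, and their share of it in all 4 iMLL-ENL libraries lay below 3 WT libraries and above WT replicate 2. Their sum was 94465, 50215, 95369 and 86929 RPM in WT replicates 1 to 4. It was 55275, 44814, 45403 and 51917 RPM in iMLL-ENL replicates 1 to 4. The groups overlapped through WT replicate 2 alone, which lay inside the iMLL-ENL range. The group means were 81745 ± 21357 and 49352 ± 5094 RPM (SD, n = 4), a ratio of 0.604. As a share of all tRNA rows, valine tRNAs were at 32.2%, 15.1%, 31.9% and 35.4% in WT and at 24.2%, 22.4%, 22.5% and 23.3% in iMLL-ENL. WT replicate 2 was thus the lowest library by this share, below all 4 iMLL-ENL libraries. Its other tRNA rows summed to 282221 RPM, against 158501 to 203572 RPM in the rest of the WT group and 155266 to 172913 RPM in iMLL-ENL. No test was run on the sum or the share, since the members were chosen with results of these data known.

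Of the 3 isoacceptors, tRNA-Val-CAC alone passed the test with all libraries. It is the isoacceptor for GUG and the second most abundant of 48 tRNA isoacceptors by its mean over all libraries. Its 10 copies summed to 71539, 38276, 71244 and 64549 RPM in WT replicates 1 to 4. In iMLL-ENL replicates 1 to 4 the sum was 39192, 30894, 32109 and 36593 RPM. WT replicates 1, 3 and 4 lay far above every iMLL-ENL library, and WT replicate 2 lay just under the highest of them. The mean fell from 61402 ± 15752 to 34697 ± 3871 RPM (SD, n = 4), a log2 fold change of -0.79 ± 0.25 (SE, adjusted p = 0.032, limma over all 67 families of rows). In that fit 17.9% of the families were called lower and 26.9% higher. Without WT replicate 2 the log2 fold change was -0.999 ± 0.125 (adjusted p = 1.2e-09). Here and below, fits without WT replicate 2 leave out the WT library that stood apart. Their small p-values also draw on the prior variance shared over everything fitted together. Leaving out any other single library ended the call, with adjusted p from 0.053 to 0.083. The call was also lost with quantile-normalized values (-0.18, adjusted p = 0.61) and with libraries set to the same summed rows, the row-total scaling (-0.50, 0.17).

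tRNA-Val-AAC, which reads the other valine codons through inosine, had a smaller difference that did not pass the test. Its 7 copies summed to 22630, 11501, 23833 and 22110 RPM in WT replicates 1 to 4. They summed to 15761, 13618, 13004 and 15021 RPM in iMLL-ENL replicates 1 to 4. WT replicate 2 was the lowest of all 8 libraries and the other WT libraries were above all iMLL-ENL libraries. The log2 fold change was -0.43 ± 0.25 (SE, adjusted p = 0.18) with all libraries. It was called without WT replicate 2 (-0.67 ± 0.13, adjusted p = 1.2e-05), with sample quality weights (-0.65, 0.0015) and after TMM scaling, a scaling by trimmed mean ratios between libraries (-0.83, 0.031). Without WT replicate 2, 22.4% of families were called lower.

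tRNA-Val-TAC was present at a far lower level and its groups overlapped. Its 3 copies summed to 296, 439, 293 and 269.7 RPM in WT replicates 1 to 4 and to 322, 302, 290.1 and 304 RPM in iMLL-ENL replicates 1 to 4. WT replicate 2 was the highest library, whereas it was the lowest WT library in all 17 CAC and AAC rows. The log2 fold change was -0.06 ± 0.15 (SE, adjusted p = 0.77). It was 0.09 ± 0.13 without WT replicate 2 (adjusted p = 0.57) and 0.22 with the row-total scaling (0.14). After TMM scaling it was -0.46 (adjusted p = 0.056), close to a call, and with quantile-normalized values -0.20 (0.46). Its sign was thus not fixed. No setting called the TAC sum in either direction.

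**Figure D1:**
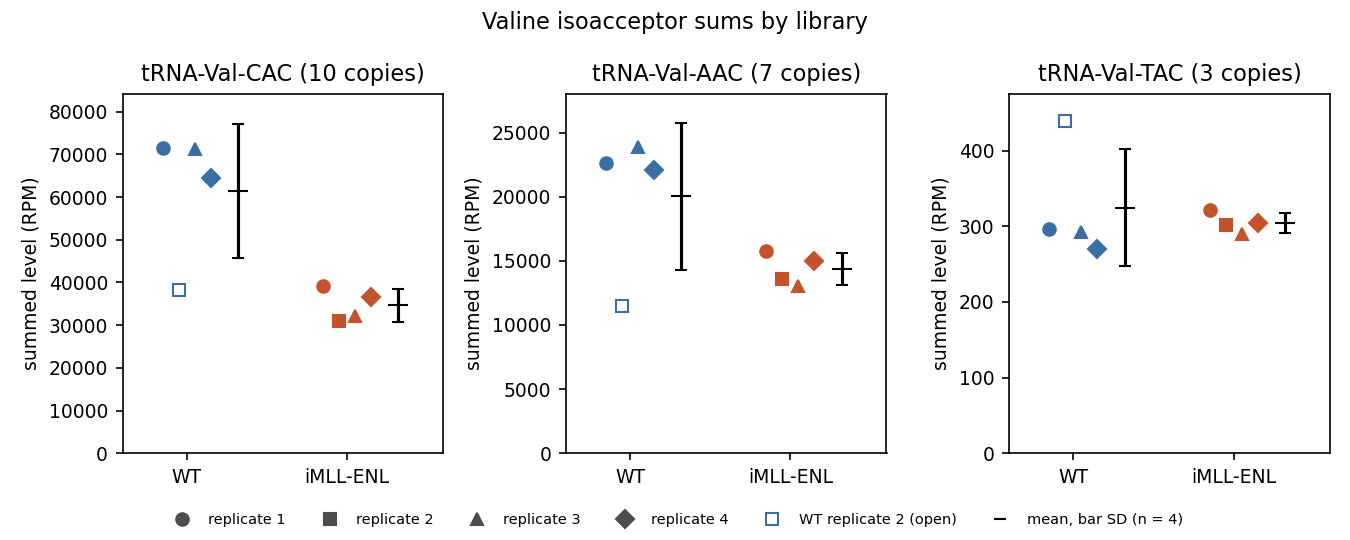
Summed RPM of each valine isoacceptor (y axis, linear from 0) in the 4 WT and 4 iMLL-ENL libraries, with the group mean and SD at the right of each group. For CAC and AAC, 3 WT libraries lie above all iMLL-ENL libraries and WT replicate 2 (open square) does not, while for TAC it is the highest at 439 RPM.

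Since the sums depend on how a library is scaled, the isoacceptors were also compared with each other inside each library, where a scaling by 1 factor per library cancels. Quantile normalization, which replaces each value by one set for its rank, does not cancel. The AAC to CAC ratio was 0.316, 0.3005, 0.335 and 0.343 in WT replicates 1 to 4. It was 0.402, 0.441, 0.405 and 0.410 in iMLL-ENL replicates 1 to 4. All 4 iMLL-ENL libraries lay above all 4 WT libraries, as in 22.4% of pairs as written. The share of pairs that did not overlap in the other direction is not given here, so 22.4% understates how often pairs separate. WT replicate 2 was the lowest of the WT libraries. The log2 ratio was higher by 0.36 ± 0.08 in iMLL-ENL (SE, adjusted p = 0.0052, limma over all 49 pairs of isoacceptors of 1 amino acid). In that fit 20.4% of pairs were called higher and 26.5% lower, the sign of a pair being set by the order in which it is written. The call held without each library in turn, at 0.32 to 0.39 with adjusted p up to 0.0197. It ended with quantile-normalized values, an alternative added after seeing the data, at 0.0742 (adjusted p = 0.64). Expressed as shares of all valine reads, AAC went from 24.3% ± 1.1 to 29.1% ± 0.9 and CAC from 75.2% ± 0.9 to 70.3% ± 0.9 (SD, n = 4). A ratio of this kind shows unequal change and not which member moved.

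The ratios with TAC did not pass the test with all libraries and passed it without WT replicate 2. TAC reads per 1000 CAC reads were 4.14, 11.5, 4.11 and 4.18 in WT replicates 1 to 4. They were 8.21, 9.78, 9.04 and 8.30 in iMLL-ENL replicates 1 to 4. WT replicates 1, 3 and 4 were close together and low, and WT replicate 2 was above all iMLL-ENL libraries. The log2 TAC to CAC ratio was higher by 0.72 ± 0.33 with all libraries (SE, adjusted p = 0.11) and by 1.09 ± 0.08 without WT replicate 2 (adjusted p = 2e-05). The log2 AAC to TAC ratio differed by -0.36 ± 0.36 (adjusted p = 0.41), and by -0.76 ± 0.07 without that library (6.6e-05). The share of all 49 pairs called without WT replicate 2 is not given here, so these 2 calls have no background. With all libraries 20.4% of pairs were called higher and 26.5% lower. With quantile-normalized values both signs turned, to -0.0231 for TAC to CAC (adjusted p = 0.96) and 0.0973 for AAC to TAC (0.87).

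**Figure D2:**
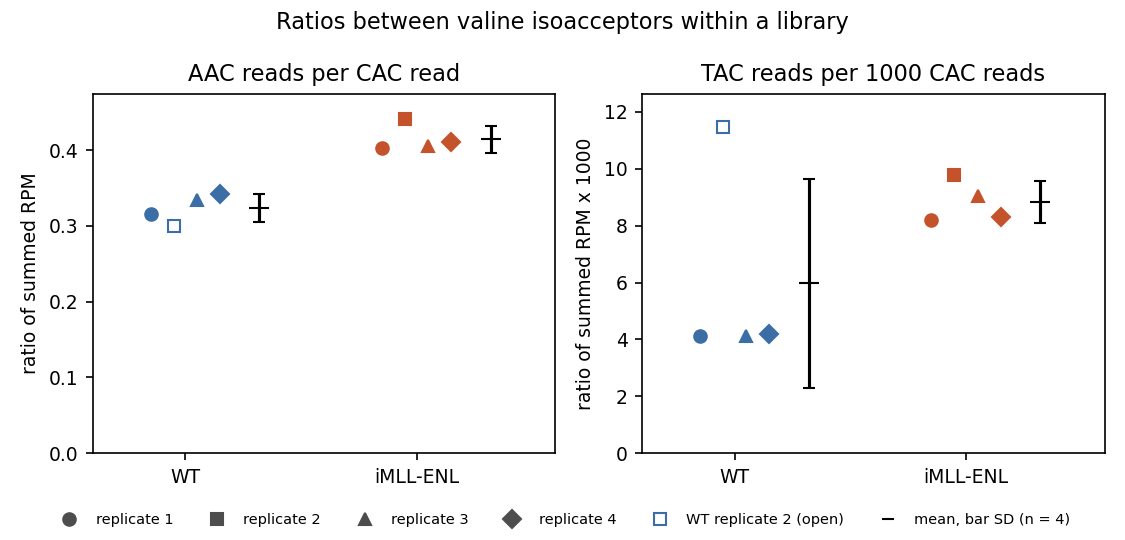
Reads of tRNA-Val-AAC per read of tRNA-Val-CAC (left) and of tRNA-Val-TAC per 1000 reads of tRNA-Val-CAC (right) in each library, with group means and SD. On the left the groups do not overlap (up to 0.343 in WT, from 0.402 in iMLL-ENL), and on the right WT replicate 2 lies at 11.5, apart from the 3 other WT libraries.

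Among single copies, those of CAC with the highest levels fell. Of the 20 copies, 19 passed the filter on level, which asked for 10 RPM in at least 4 libraries. Of these, 5 were called lower and 0 higher (9 had an unadjusted limma p under 0.05), against 8.53% of all 633 tested rows called lower and 20.4% called higher. The median log2 fold change was -0.46 over the 19 copies, -0.02 over the 278 tested tRNA rows and 0.31 over all tested rows. The 5 called copies were tRNA91-ValCAC, tRNA284-ValCAC, tRNA204-ValCAC, tRNA710-ValCAC and tRNA966-ValCAC, which together held 87.7% to 92.0% of the CAC reads of each library. In any 1 library the highest of them exceeded the lowest by 7.28% to 13.05%. tRNA966-ValCAC, the most abundant, was at 13702, 7319, 13780 and 12480 RPM in WT replicates 1 to 4 and at 7429, 5942, 6132 and 6899 RPM in iMLL-ENL replicates 1 to 4. WT replicate 2 again lay within the iMLL-ENL range for this copy. Its log2 fold change was -0.80 ± 0.25 (SE, adjusted p = 0.042).

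tRNA91-ValCAC had the lowest log2 fold change, -0.86 ± 0.25 (SE, adjusted p = 0.034). It stood at 12780, 6845, 12946 and 11615 RPM in the WT libraries and at 6710, 5256, 5476 and 6265 RPM in iMLL-ENL. Its groups did not overlap, as was so for tRNA284-ValCAC (-0.86, adjusted p = 0.034) and tRNA204-ValCAC (-0.85, 0.035), with 11.4% of tested rows not overlapping and lower. tRNA710-ValCAC (-0.84, 0.037) overlapped, with WT replicate 2 at 6724 RPM and iMLL-ENL replicate 1 at 6750 RPM. All 5 calls ended when any 1 library other than WT replicate 2 was left out, and under the quantile, median-centring and row-total settings. Without WT replicate 2, 11 valine copies were called lower and 1 higher, against 15.7% and 39.9% of the 617 rows tested then.

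The remaining CAC copies were lower in level and less alike. tRNA97-ValCAC was at 2924 ± 623 and 2012 ± 297 RPM (SD, n = 4; log2 fold change -0.52, adjusted p = 0.097). tRNA10-ValCAC was at 161 ± 41 and 99.4 ± 17.1 RPM (-0.67, adjusted p = 0.055). tRNA391-ValCAC was at 143 ± 42 and 113 ± 10 RPM (-0.29, adjusted p = 0.37). tRNA98-ValCAC had the highest log2 fold change of the CAC copies, -0.02 ± 0.22 (SE, adjusted p = 0.95). It was at 2464, 1345, 2235 and 2121 RPM in WT replicates 1 to 4 and at 2218, 1840, 1729 and 2100 RPM in iMLL-ENL replicates 1 to 4. Apart from WT replicate 2 the WT libraries lay at or above the middle of the iMLL-ENL range, and the sign of the difference changed with the scaling. tRNA976-ValCAC, below the filter and not tested, was at 4.62, 2.08, 4.90 and 2.94 RPM in WT and at 3.41, 1.51, 2.96 and 3.76 RPM in iMLL-ENL.

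The AAC copies fell into 2 kinds by level and by direction, a grouping made after their values were seen. tRNA48-ValAAC and tRNA208-ValAAC held 69.1% to 80.2% of the AAC reads of each library and differed from each other by 0.611% to 3.42%. tRNA48-ValAAC was at 8956, 4449, 9674 and 8855 RPM in WT replicates 1 to 4. It was at 5621, 4806, 4566 and 5283 RPM in iMLL-ENL replicates 1 to 4. WT replicate 2 was the lowest library and the other WT libraries the highest, with a log2 fold change of -0.597 ± 0.272 (SE, adjusted p = 0.12). tRNA208-ValAAC, with the lowest log2 fold change of the AAC copies, was at 7814 ± 2288 and 4932 ± 489 RPM (SD, n = 4; -0.61, adjusted p = 0.11). tRNA986-ValAAC, next in level, was at 1563 ± 386 and 1104 ± 89 RPM (-0.46, adjusted p = 0.14). All 3 passed the test without WT replicate 2, at -0.86, -0.86 and -0.67.

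The other 4 AAC copies had log2 fold changes above 0 on the deposited scale, and tRNA95-ValAAC alone was above 0 after TMM scaling. tRNA95-ValAAC was at 563, 285, 437 and 465 RPM in WT replicates 1 to 4 and at 727, 577, 636 and 687 RPM in iMLL-ENL replicates 1 to 4. All iMLL-ENL libraries lay above all WT libraries, as in 27.2% of tested rows, with a log2 fold change of 0.62 ± 0.21 (SE, adjusted p = 0.053). Leaving out WT replicate 2 gave 0.43 (adjusted p = 0.035), a call. tRNA93-ValAAC, tRNA974-ValAAC and tRNA977-ValAAC had log2 fold changes of 0.25, 0.25 and 0.29 with all libraries (adjusted p of 0.42, 0.42 and 0.35). Without WT replicate 2 they were at 0.03, 0.03 and 0.06. The TAC copies tRNA109-ValTAC, tRNA110-ValTAC and tRNA460-ValTAC were at -0.04, -0.09 and -0.06, with adjusted p from 0.76 to 0.85.

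**Figure D3:**
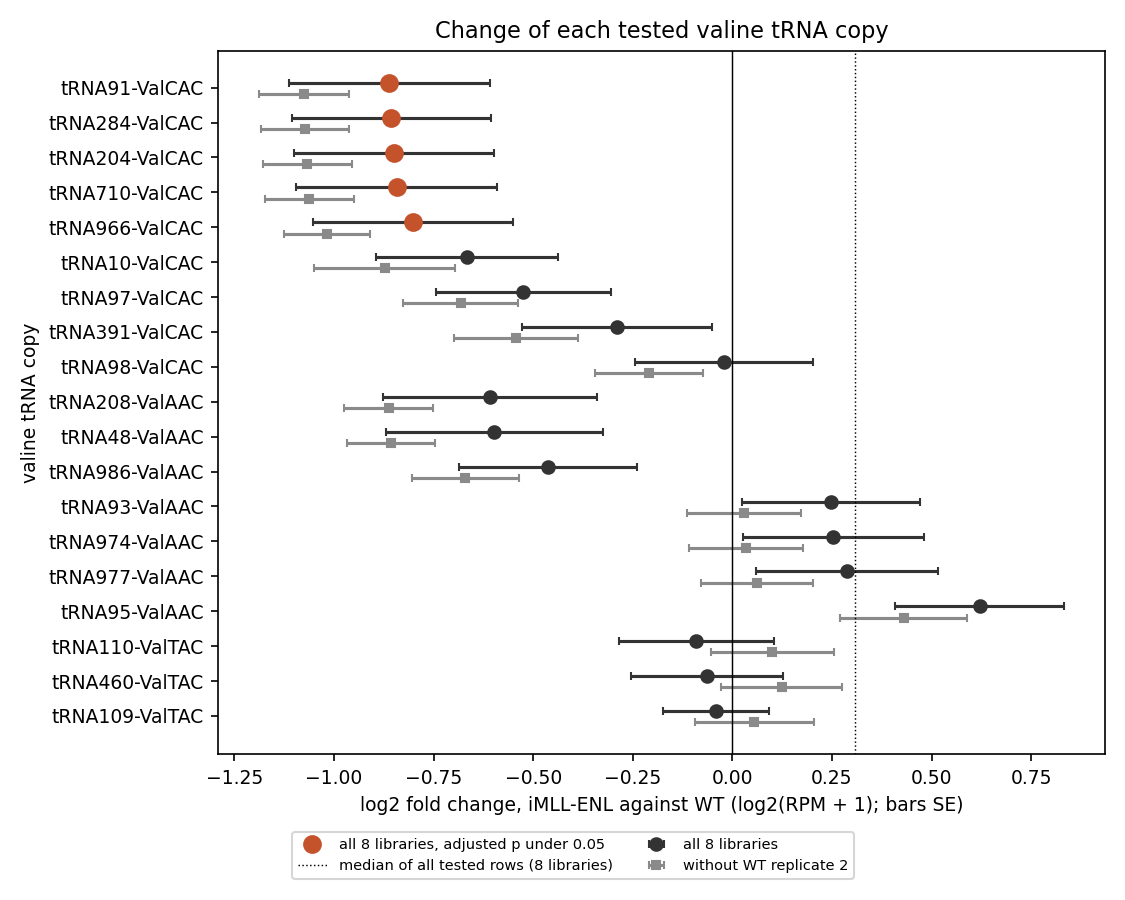
Log2 fold change with its SE for the 19 tested valine copies (x axis), with all 8 libraries (circles, red where the adjusted p was under 0.05) and without WT replicate 2 (grey squares). The 5 red circles are the most abundant CAC copies, at -0.86 to -0.80, and 4 AAC copies lie to the right of 0 at 0.25 to 0.62.

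Copies of the same isoacceptor therefore differed in their change, and this was compared inside each library as well, a comparison chosen after the values were seen. Each tested tRNA copy was set against the summed other tested copies of its isoacceptor, for 275 copies of all tRNAs. Among the 19 valine copies, the log2 ratio of 7 rose and that of 6 fell, where 12.7% of all 275 copies rose and 14.5% fell. A copy can rise here because the others fell.

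Relative rises were seen in 4 AAC copies of lower level, the largest of all in tRNA95-ValAAC. The next largest was in a CAC copy, tRNA98-ValCAC, given below. tRNA95-ValAAC held 2.49%, 2.48%, 1.83% and 2.10% of the AAC reads in WT replicates 1 to 4 while iMLL-ENL replicates 1 to 4 had 4.61%, 4.24%, 4.89% and 4.57%. The groups did not overlap, and iMLL-ENL was higher, as in 16.4% of the 275 copies, with another 16.4% not overlapping and lower, and WT replicate 2 lay with the other WT libraries. Against the other AAC copies its log2 ratio rose by 1.08 ± 0.11 (SE, adjusted p = 0.00065). tRNA93-ValAAC went from 3.37% ± 0.19 to 5.38% ± 0.19 of the AAC reads (SD, n = 4; log2 ratio higher by 0.71, adjusted p = 0.00012). tRNA974-ValAAC went from 4.00% ± 0.18 to 6.42% ± 0.32 (0.72, adjusted p = 0.00012) and tRNA977-ValAAC from 3.81% ± 0.15 to 6.26% ± 0.24 (0.75, adjusted p = 8e-05). Together these 4 copies took 12.4% to 14.3% of AAC reads in the WT libraries and 21.8% to 23.2% in the iMLL-ENL libraries.

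In the CAC group tRNA98-ValCAC had the same kind of difference. It held 3.44%, 3.51%, 3.14% and 3.29% of CAC reads in WT replicates 1 to 4 while iMLL-ENL replicates 1 to 4 had 5.66%, 5.96%, 5.39% and 5.74%. No WT library reached the lowest iMLL-ENL library. Its log2 ratio to the other CAC copies rose by 0.80 ± 0.05 (SE, adjusted p = 8e-05). tRNA391-ValCAC rose from 0.231% ± 0.015 to 0.326% ± 0.025 of CAC reads (SD, n = 4; 0.50, adjusted p = 0.0017). The rises of these 2 copies and of the 4 AAC copies passed the test without each library in turn. With quantile-normalized values 2 of these 6 rises passed, tRNA98-ValCAC (0.64, adjusted p = 0.0059) and tRNA95-ValAAC (0.66, 0.043). The other 4 ended, with tRNA391-ValCAC below 0 (-0.25, adjusted p = 0.13) and the other 3 AAC copies at 0.15 to 0.29 (0.25 to 0.37). tRNA97-ValCAC also rose with all libraries (0.28 ± 0.08, adjusted p = 0.046), with overlapping groups, and lost the call without any 1 library other than WT replicate 2 and iMLL-ENL replicate 2 (adjusted p up to 0.11).

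The relative falls were in the abundant copies. tRNA208-ValAAC and tRNA48-ValAAC went from 38.95% ± 0.48 to 34.3% ± 0.4 and from 39.7% ± 0.8 to 35.3% ± 0.2 of AAC reads (SD, n = 4). Their log2 ratios to the other AAC copies fell by 0.29 and 0.27, with adjusted p of 0.00039 and 0.00094. tRNA91-ValCAC, tRNA284-ValCAC, tRNA204-ValCAC and tRNA710-ValCAC fell by 0.07 to 0.09 against the other CAC copies, with adjusted p from 0.012 to 0.047. The fall of tRNA91-ValCAC passed the test without each library in turn, and those of the other 3 did not. With a replicate block none of these CAC falls passed (adjusted p = 0.071 to 0.151). With quantile-normalized values none of these 6 falls passed, tRNA48-ValAAC (0.0686) and tRNA710-ValCAC (0.11) were above 0, and tRNA10-ValCAC was the 1 copy called lower (-0.61, adjusted p = 0.011). tRNA966-ValCAC (-0.02, adjusted p = 0.54), tRNA986-ValAAC (-0.04, 0.65), tRNA10-ValCAC (0.12, 0.296) and the 3 TAC copies (-0.04 to 0.04, 0.67 to 0.99) did not pass the test. Taking only the abundant copies, the summed 2 highest AAC copies per summed 5 highest CAC copies were at 0.272, 0.256, 0.292 and 0.296 in WT and at 0.322, 0.347, 0.319 and 0.326 in iMLL-ENL. These groups did not overlap. The copies hold most of the AAC and CAC reads, so this ratio largely repeats the AAC to CAC ratio above and is not a separate result. The copies were picked with their values known, no test was run on this ratio, and no background share is given for it.

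**Figure D4:**
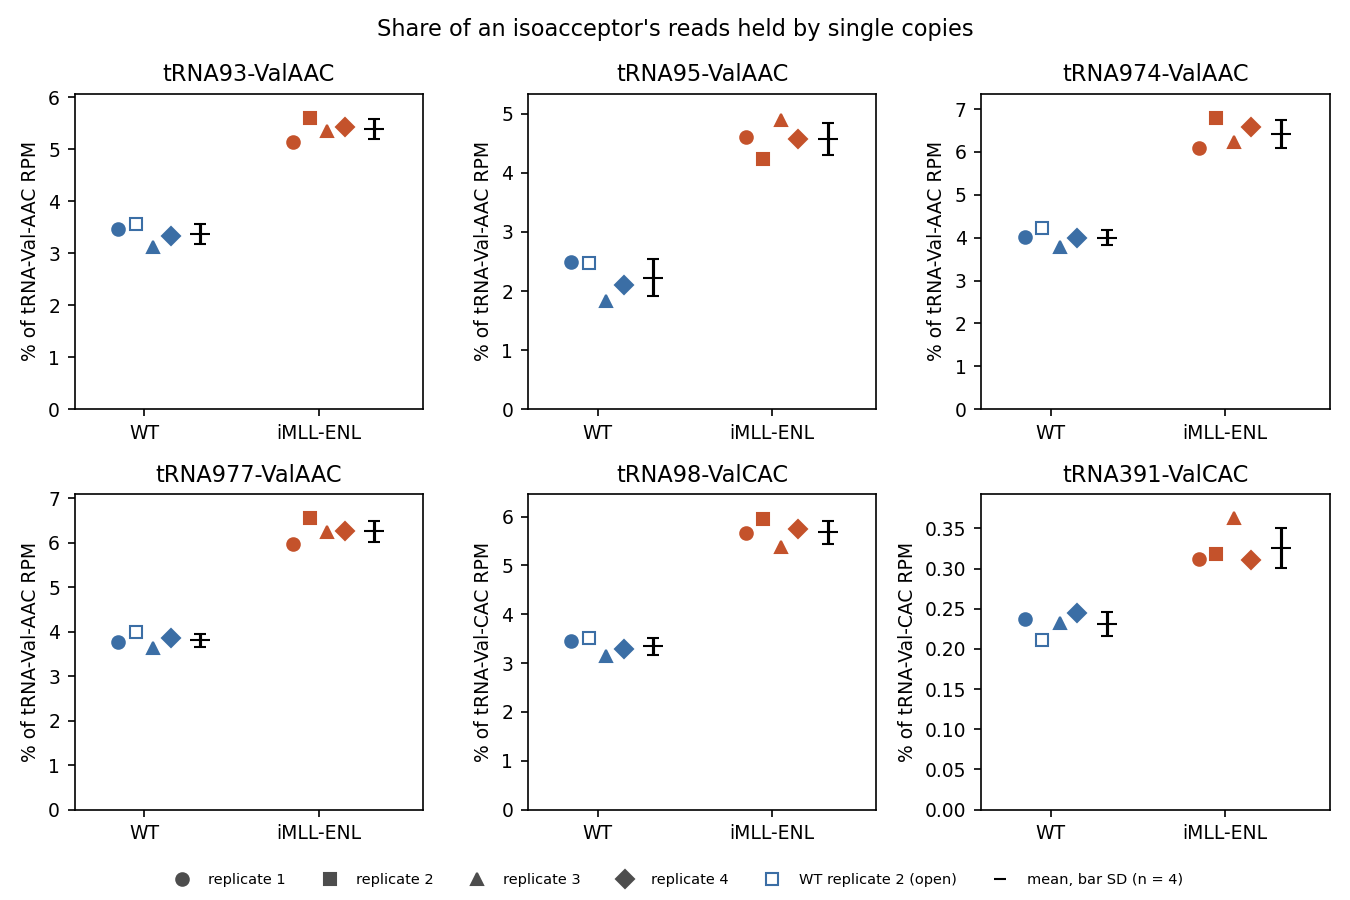
Share of its isoacceptor's summed RPM held by each of 6 copies (y axis in percent, from 0) in each library, with group means and SD. In every panel the 4 iMLL-ENL libraries lie above the 4 WT libraries, and WT replicate 2 (open square) lies with or next to the other WT libraries.

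The size of the change in the sums depended on the scaling. The valine rows made up 13.1% to 29.0% of the summed rows of a library. All summed rows stood at 300012 to 384453 RPM in WT and at 259667 to 291915 RPM in iMLL-ENL, a ratio of means of 0.817. All tRNA rows stood at 245430 to 332436 RPM in WT and at 200080 to 228188 RPM in iMLL-ENL, a ratio of 0.729. In both sums the groups did not overlap. The other reads of each library's total lie outside these rows. On the deposited scale the tested rows had a median log2 fold change of 0.31, with 129 called higher and 54 lower. After TMM scaling the median was -0.08 (35 higher, 129 lower), and with the row-total scaling it was 0.59 (251 higher, 27 lower). The CAC sum was at -1.19 after TMM scaling (adjusted p = 0.0067), at -0.89 after median centring (0.044) and at -0.79 when the top 5 rows did not count toward the scaling (0.035). The row-total and quantile settings gave the smaller values named above, -0.50 and -0.18. In all 5 the CAC and AAC sums were below 0.

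**Figure D5:**
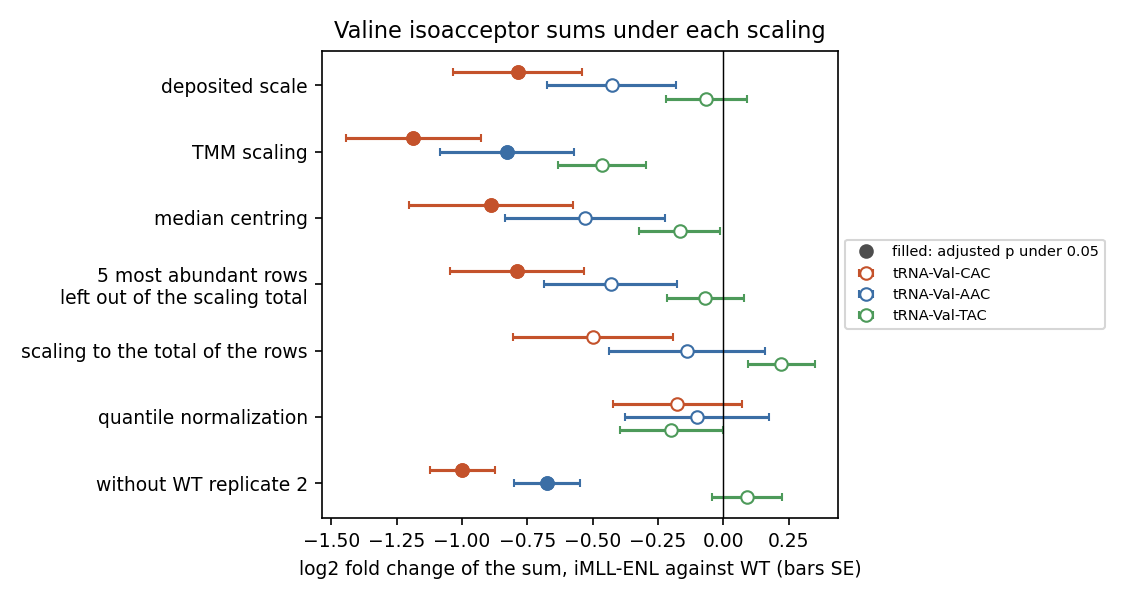
Log2 fold change of each valine isoacceptor sum with its SE (x axis) under the deposited scale, 5 other scalings and without WT replicate 2; filled points had an adjusted p under 0.05. CAC lies left of AAC in every setting shown, and its values run from -1.19 (TMM) to -0.18 (quantile).

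In the authors' deposited table, 8 of the 20 valine rows had an FDR under 0.05, all lower in iMLL-ENL, where 11.9% of its 964 rows were called lower and 4.56% higher. These were 6 CAC rows and 2 AAC rows. The authors' deposited table gave log2 fold changes from -1.30 to -0.45 for CAC rows, from -1.07 to 0.19 for AAC rows and from -0.54 to -0.45 for TAC rows. tRNA95-ValAAC, at 0.19 with an FDR of 0.796, was the valine row above 0 in the authors' deposited table.

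The same 3 anticodon types, which start with A, C or T, serve alanine, arginine, leucine, proline, serine and threonine. Of these 18 isoacceptors, 2 were called higher and 5 lower, and 11 were not called, where 26.9% of all families were called higher and 17.9% lower, with a median log2 fold change of 0.03 against 0.24 over all 67 families. In the valine set the isoacceptor that starts with C was lower against the one that starts with A, by 0.36 as given above. In the leucine and serine sets it was also lower (LeuCAG to LeuAAG -0.64, adjusted p = 0.0045, and SerCGA to SerAGA -0.65, 0.0052). In the arginine set it was higher (ArgCCG to ArgACG 0.86, adjusted p = 0.027). The WT levels there were uneven, with ArgACG at 297 ± 311 RPM (SD, median 158) and ArgCCG at 155 ± 89 RPM. In iMLL-ENL they were at 83.25 ± 9.87 and 99.19 ± 2.36 RPM. Fits without single libraries are not given for this pair. In the alanine (0.53, adjusted p = 0.063), proline (-0.05, 0.49) and threonine sets (-0.15, 0.41) the pair did not pass the test.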

How the data were processed

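Small RNA was measured in 8 libraries made with the QIAseq miRNA kit, per the labels' protocols. The authors deposited 1 table of 964 rows. The authors scaled each library to RPM before depositing it: the columns are called TPM per the file headers, but in each library 99.79% to 100% of values are whole multiples of 1 step within 0.0055 RPM, as no length-divided value would be. The deposited table also holds the authors' log2 fold change, mean log2 CPM, p-value and FDR, per the file headers. The genome build was GRCm38, per the submitters' processing notes. Whole tRNAs and fragments cannot be told apart, since no read lengths were used. How reads were aligned and counted, by strand or at several loci, is not given in the sources used here.

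Tests used limma 3.58.1 with statmod 1.5.0 in R 4.3.3 on log2(RPM + 1), two-sided, with a trended and robust prior variance and Benjamini-Hochberg adjustment at 0.05. Fold changes on this scale understate changes of low rows. Rows entered where at least 4 libraries reached 10 RPM (633 of 964). The same model without a filter was fitted to 67 sums of rows by family, 48 of them tRNA isoacceptors. Ratios between isoacceptors (49 pairs) and of a copy to the other copies (275) were fitted without a trend. Described in full were, in each isoacceptor, the 3 most abundant copies, all called copies and those with the highest and lowest log2 fold change, with the others more briefly. The members, lists and tests were chosen with earlier results of these data known. Descriptions used Python 3.11.15, numpy 2.4.6 and pandas 2.3.3. Alternatives were other scalings (TMM, quantile, median centring, row total, top 5 rows left out), a pseudocount of 10, no filter or 100 RPM, another limma prior, sample weights, a replicate block and each library left out. The fits were tested on simulated data. RefSeq gene names and coordinates come from a table on GRCm38.p6. No sequences of valine tRNAs were used here.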

Additional observations from a re-analysis of the deposited data

Results flagged for a closer look

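In groups of 4 libraries, the highest or lowest library was compared with the nearest other one, and 14 of 54 groups (valine sums, copies and ratios, in WT or iMLL-ENL) held a library far from the rest. Chance alone gives about 1 in 20, and the copies share reads and libraries, so these are not independent. WT replicate 2 was that library in 13 of the 14. It was low for the AAC sum (11501 RPM, others 22110 to 23833), tRNA48-ValAAC (4449), tRNA208-ValAAC (4422), tRNA986-ValAAC (989), tRNA93-ValAAC (410), tRNA974-ValAAC (487), tRNA977-ValAAC (459) and tRNA391-ValCAC (80.7 RPM). It was high for the TAC sum (439 RPM, others 269.7 to 296), tRNA109-ValTAC (154) and tRNA460-ValTAC (142 RPM). Its AAC to TAC ratio was 26.2 (others 76.5 to 82.0) and its CAC to TAC ratio 87.2 (others 239 to 243). The other flagged library was iMLL-ENL replicate 1 for tRNA109-ValTAC, at 131 RPM against 119.7 to 120.4 RPM. The cause was not tested.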

How the results depend on the processing

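The depth limits no valine value but that of tRNA976-ValCAC. The AAC to CAC ratio kept its call in every setting run but quantile normalization, where it was 0.0742 (adjusted p = 0.64). That alternative, added for ratios after seeing the data, gives all libraries the same set of values by rank. It also turned AAC to TAC (0.0973), TAC to CAC (-0.0231) and, against other copies, tRNA10-ValCAC (-0.61), tRNA391-ValCAC (-0.25), tRNA97-ValCAC (-0.0478), tRNA460-ValTAC (-0.0397), tRNA48-ValAAC (0.0686) and tRNA710-ValCAC (0.11), leaving 2 copies higher and 1 lower against the others. Without 1 library at a time the log2 differences ran from -0.999 to -0.70 for the CAC sum, -0.67 to -0.32 for AAC, -0.14 to 0.0895 for TAC, 0.32 to 0.39 for AAC to CAC, -0.76 to -0.22 for AAC to TAC, 0.60 to 1.09 for TAC to CAC and -0.90 to -0.65 for the sum of all valine rows (no test). Copies called lower ran from 0 to 11, copies called higher from 0 to 1, and copies that rose or fell against the others from 6 to 8 and from 3 to 6 (3 without WT replicate 4 or iMLL-ENL replicate 3). The CAC call ended after quantile normalization (-0.18) and scaling to the total of the rows (-0.50). AAC was called after TMM scaling (-0.83) and with sample quality weights (-0.65), which also called AAC to TAC (-0.72) and TAC to CAC (1.05). Copies called lower numbered 10 (TMM), 1 (quantile), 0 (median centring, total of the rows) and 12 (weights), where of the 633 rows tested 129 were called lower with TMM, 56 with quantile, 66 with median centring, 27 with the row total and 135 with weights, against 54 on the deposited scale. With the 100 RPM filter, the block, the weights or the row total, 1 copy was called higher, tRNA95-ValAAC. Rows called higher in these settings numbered 66 of 230 with the 100 RPM filter. Of 633 rows they numbered 151 with the block, 322 with the weights and 251 with the row total.

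The sign turned for values near 0. With weights TAC was at 0.0545, tRNA109-ValTAC at 0.0371, tRNA460-ValTAC at 0.0569, and against other copies tRNA109-ValTAC at -0.0192 and tRNA986-ValAAC at 0.0032. With the row total TAC was at 0.22, tRNA109-ValTAC at 0.25, tRNA110-ValTAC at 0.19, tRNA460-ValTAC at 0.22 and tRNA98-ValCAC at 0.27, which was at 0.43 after quantile normalization. Without 1 library, log2 fold changes ran from -0.0882 to 0.0551 (tRNA109-ValTAC), -0.20 to 0.10 (tRNA110-ValTAC), -0.15 to 0.12 (tRNA460-ValTAC) and -0.21 to 0.0814 (tRNA98-ValCAC), and ratios to other copies from -0.0576 to 0.0888 (tRNA109-ValTAC), -0.0844 to 0.0156 (tRNA110-ValTAC), -0.0258 to 0.0498 (tRNA460-ValTAC) and -0.0746 to 0.005 (tRNA986-ValAAC). The causes were not tested.

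Same-numbered libraries of the groups correlated in their deviations at 0.39, 0.29, -0.13 and 0.42, and 3 of the 4 numbers matched best with their own. The main fits did not take the numbers as pairs, so an effect shared by a number is not modelled in them. With a replicate block the CAC sum kept its call (adjusted p = 0.035), where 7 families were called lower and 17 higher. Of the valine copies, 5 were lower and 1 higher, against 42 and 151 of the 633 rows tested. Against other copies, 6 rose and 2 fell. The share of all 275 copies that rose or fell with the block is not given here, so the 6 and 2 have no background. The 5 lower copies are not those called without the block, since tRNA966-ValCAC lost its call (adjusted p = 0.051). Against other copies the falls of tRNA91-ValCAC, tRNA284-ValCAC, tRNA204-ValCAC and tRNA710-ValCAC all lost theirs (adjusted p = 0.0713, 0.0858, 0.1002 and 0.151), as did the rise of tRNA97-ValCAC (0.165). In 1 fit the estimate of the sample weights stopped short of full convergence. The 2 planned count-model tests were not run, since it could not be established in every library that the step is 1 read. The read numbers given above are therefore estimates.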
